A study of Mus musculus with 15 samples.

Results

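The genes of the Wnt signalling pathway were examined for DNA methylation in the dentate gyrus of the mouse hippocampus. The 53 member genes comprise 19 ligands, 12 receptors and co-receptors, 9 secreted antagonists and 13 intracellular effectors. A CpG cytosine was assigned to a member where it lay inside the gene or within 2 kb of it in the RefSeq annotation of GRCm38.p6. This gave 1628 of the 455836 CpG cytosines of the series, each strand counted apart, and 50 of the 53 genes had at least 1. Wnt16, Dkk4 and Sfrp4 had none. The assay was reduced representation bisulfite sequencing (RRBS), which reads CpG-rich fragments of bisulfite-treated DNA, in micro-dissected dentate gyrus from 15 female C57BL/6JRj mice aged 7.5 months. No genetic change or drug is named for any group. The standard group (5 mice) spent 6 months in standard cages, the enriched group (5 mice) spent 6 months in environmental enrichment, and the withdrawal group (5 mice) spent 3 months in enrichment and then 3 months in standard cages. The series asked how methylation in this tissue differed among these housing histories.

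Wnt ligands are secreted lipid-modified proteins that bind Frizzled receptors and the co-receptors Lrp5 and Lrp6. Binding recruits Dishevelled and inactivates a cytoplasmic complex of Axin, Apc and the kinase Gsk3b, so that beta-catenin (Ctnnb1) accumulates, enters the nucleus and acts with the DNA-binding factors Lef1, Tcf7, Tcf7l1 and Tcf7l2. Dickkopf proteins such as Dkk1 block the co-receptors, and secreted Frizzled-related proteins (Sfrp1, Sfrp2, Sfrp4, Sfrp5 and Frzb) bind the ligands. In the dentate gyrus the pathway is known for its part in the production of new granule neurons in the adult, and Lef1 is known to be needed for the dentate gyrus to form.

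The files give percent methylation per cytosine and mouse without read counts, so the depth behind each value is unknown and no counting interval can be given. The standard mouse 1 stood apart: it had a value at 51.4% of the member cytosines, against 68.9% to 96.5% in the other 14 mice. Of the 1628 cytosines, 327 in 40 genes had a value in all 15 mice and are called complete below. At 112 plus-strand cytosines the minus-strand partner of the same CpG was also measured, 33 cytosines belong to both Wnt3 and Wnt9b, which lie beside each other, and 141 lie in or within 2 kb of another protein-coding gene. Neighbouring cytosines are therefore not independent. DNA methylation alone cannot check the dissected tissue against expressed markers, and a change in the mix of cells cannot be told apart from a change within cells.

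Promoter sequences show where the measured cytosines fall. In RefSeq the member genes have 49 listed promoter windows (250 bases before to 50 bases after a transcription start) in 37 genes, and no start is listed for the other 16. The median member window held 24 CpGs, against 13 over 21263 windows of all protein-coding genes, and the ratio of observed to expected CpGs was 0.74 against 0.57. The letters CCGG, which the RRBS enzyme MspI cuts, occurred in 79.6% of member windows and in 62.2% of all windows. A CpG value was present in 40.8% of member windows and in 26.2% of all windows. Median methylation over the windows with a value was 1.40% in members and 1.45% overall. The letters CTTTGAA or CTTTGAT, searched on both strands as a core of the Tcf and Lef recognition sequence, occurred in 3 member windows (6.12%), those of Dkk1, Wnt11 and Wnt5b, and in 7.57% of all windows.

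The windows of 4 members, on RefSeq GRCm38.p6 and written 5′ to 3′ on the strand of the gene, are given below with the measured CpGs in capitals. Wnt5b is shown as the member start with the highest methylation, Fzd4 as a receptor window dense in CpGs, Apc2 as an effector window with 12 measured CpGs, and Dkk1 because its window holds CTTTGAA or CTTTGAT.
Wnt5b, minus strand, chr6:119449337-119449636: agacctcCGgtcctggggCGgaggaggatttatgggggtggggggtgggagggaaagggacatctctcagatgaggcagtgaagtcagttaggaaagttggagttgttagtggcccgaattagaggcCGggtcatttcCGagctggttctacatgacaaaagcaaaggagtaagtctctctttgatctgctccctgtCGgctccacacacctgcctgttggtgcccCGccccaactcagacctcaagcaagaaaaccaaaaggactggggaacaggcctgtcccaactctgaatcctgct
Fzd4, plus strand, chr7:89404116-89404415: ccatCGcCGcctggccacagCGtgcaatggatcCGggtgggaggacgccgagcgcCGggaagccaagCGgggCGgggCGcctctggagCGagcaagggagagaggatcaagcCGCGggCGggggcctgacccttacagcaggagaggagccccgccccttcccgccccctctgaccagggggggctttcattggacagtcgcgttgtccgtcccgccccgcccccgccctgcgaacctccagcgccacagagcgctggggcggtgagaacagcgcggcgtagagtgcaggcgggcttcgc
Apc2, plus strand, chr10:80295706-80296005: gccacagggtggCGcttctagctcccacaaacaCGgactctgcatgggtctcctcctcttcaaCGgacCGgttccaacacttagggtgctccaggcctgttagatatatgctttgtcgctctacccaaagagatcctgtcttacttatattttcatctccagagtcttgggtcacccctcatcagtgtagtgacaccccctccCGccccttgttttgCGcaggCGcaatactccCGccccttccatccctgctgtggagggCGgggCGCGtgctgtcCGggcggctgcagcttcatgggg
Dkk1, minus strand, chr19:30549447-30549746: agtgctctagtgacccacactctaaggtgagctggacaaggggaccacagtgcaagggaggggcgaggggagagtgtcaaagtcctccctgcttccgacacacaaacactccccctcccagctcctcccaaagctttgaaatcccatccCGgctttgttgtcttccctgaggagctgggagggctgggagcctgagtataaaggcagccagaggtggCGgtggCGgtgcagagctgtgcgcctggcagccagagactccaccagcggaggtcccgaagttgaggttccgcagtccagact

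The Fzd4 window, with 32 CpGs of which 12 were measured, averaged 1.03% methylation. The Apc2 window had 14 CpGs and 12 measured ones with a mean of 1.55%, and the Dkk1 window had 9 CpGs and 3 measured ones with a mean of 0.922%. The measured CpGs of these windows were thus nearly free of methylation on average, and the other CpGs are unknown. The measured ones of Fzd4 lay from -245 to -132, counted from the start. Single mice reached 58.3% at -216 in Fzd4 and 66.7% at -32 in Apc2. The Wnt5b window, which belongs to a start inside the gene about 95 kb after the first listed one, had 7 CpGs and an observed to expected ratio of 0.31, and its 6 measured CpGs averaged 45.2%. Its CpGs did not share 1 level. Counted from the start, the mean over mice was 40.2% at position -243 and 91.1% at -232, 8.33% at -123 and 91.1% at -112, and 4.99% at -53 and 35.3% at -23. The cytosines at -243 and -123 lie in CCGG and the other 4 do not. The order of the groups differed from 1 CpG to another. At -232 the group means were 85.4%, 89.5% and 97.1% in standard, enriched and withdrawal mice, with SDs of 13.4, 9.75 and 6.39 points over 4, 5 and 5 mice with a value. At -243 they were 53.7%, 29.2% and 40.5% over the same numbers of mice, and at -112 they were 100%, 85.8% and 88.3% over 3, 3 and 4 mice.

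Methylation of the member cytosines was mostly low. Averaged over the mice with a value, the 1628 cytosines had a mean of 19.6% and a median of 3.25%, with 1217 under 20%, 216 between 20% and 80%, and 195 over 80%. Over the cytosines in and around all protein-coding genes, which include the members, the mean was 27.2% and the median 4.49%, and over the series they were 38.9% and 15.1%. Receptors were the lowest role, with a mean of 12.3% and a median of 0.892% over 410 cytosines. Antagonists followed with 15.2% and 2.29% over 134, and ligands with 17.1% and 3.80% over 596. Effectors had the highest level, with a mean of 29.9% and a median of 9.29% over 488 cytosines. These are means over cytosines, so genes with many measured cytosines weigh most, and no test was made between roles.

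**Figure D1:**
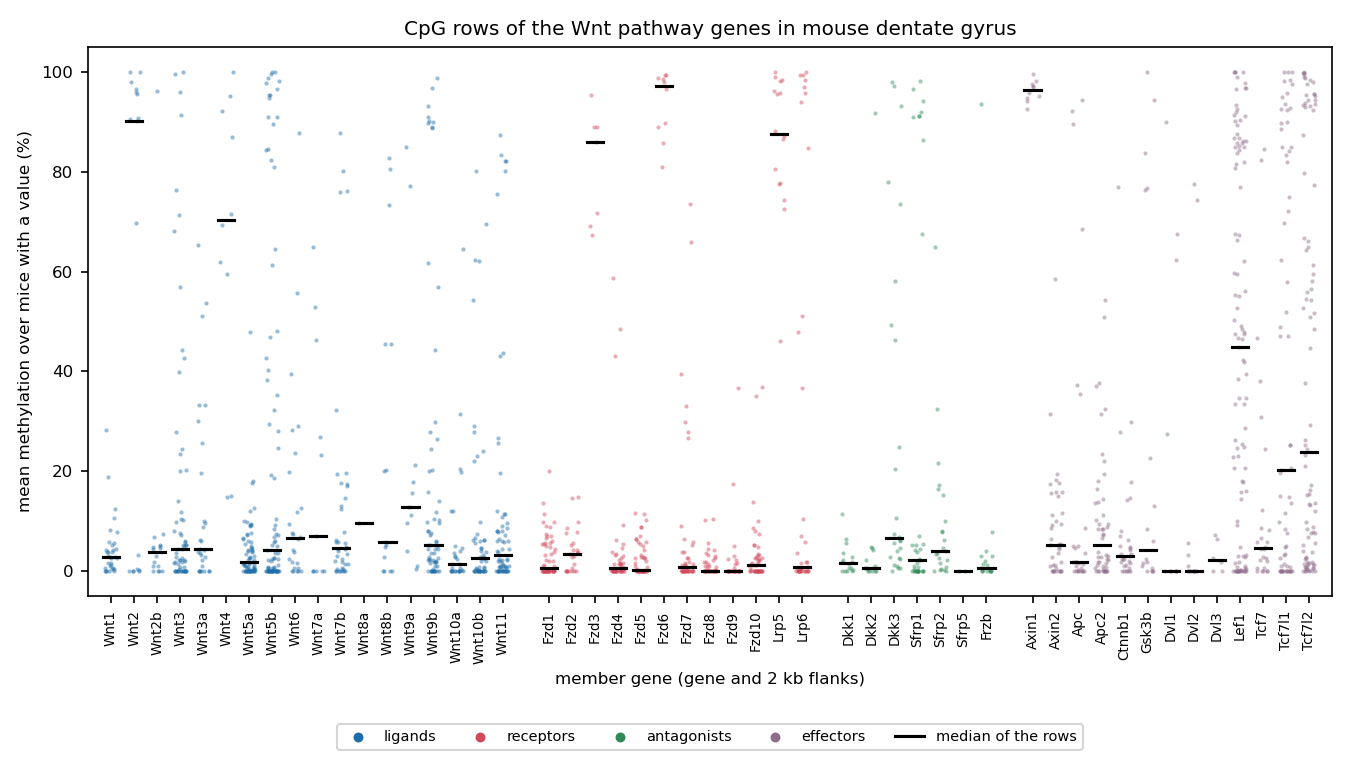
Mean methylation (percent, vertical axis) of each measured CpG cytosine over the mice with a value, by member gene (horizontal axis) and coloured by role, with a black bar at the median of the gene. Most genes have a dense band near 0 and few cytosines above 80%, while Wnt2, Wnt4, Fzd3, Fzd6, Lrp5 and Axin1 have their medians between 70.4% and 97.3%.

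Among the ligands, the best covered were Wnt5b (83 cytosines), Wnt5a (69), Wnt9b (64) and Wnt11 (64). Wnt5a, a ligand known mainly for signalling independent of beta-catenin, was low throughout: its 69 cytosines averaged 4.16%, and 68 of them were under 20%. Wnt11, another ligand of that kind, averaged 13.0%, with 5.23% over 57 cytosines near its starts and 76.3% over 7 in its body. Wnt5b averaged 26.6%, from 0% to 100%. The canonical ligand Wnt3, made by hippocampal astrocytes, averaged 17.2% over 61 cytosines, and its neighbour Wnt9b averaged 20.7% over 64. Wnt1, the founding member of the family, averaged 4.48% over 33 cytosines, the highest of them 28.2%. Body means (over cytosines of the gene and its flanks more than 2 kb from a listed start) ranged in ligands from 1.95% in Wnt1, over 8 cytosines, to 92.7% in Wnt2, over 10, apart from the lone body cytosine of Wnt2b. Wnt2 had both extremes: 7 cytosines near its start averaged 0.554%, and 10 in its body were highly methylated. Of the remaining ligands, Wnt4 was high (66.7% over 10 cytosines), Wnt8b, Wnt9a and Wnt7a were in between (25.8%, 23.2% and 20.1% over 15, 11 and 11), and Wnt6, Wnt7b, Wnt3a, Wnt10b, Wnt2b and Wnt10a averaged from 6.55% to 13.9%. Wnt8a had a single cytosine, at 9.53%.

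The Frizzled genes, most of which are short genes with little or no intron, had low methylation at most of their measured cytosines. Many of these cytosines lay in the flanks: 8 of 51 were inside the gene in Fzd4, 12 of 46 in Fzd10 and 16 of 43 in Fzd7. Both stretches of Fzd4 cytosines reach within 2 kb of Tmem135 and of its listed start, and cannot be assigned to Fzd4 alone. Fzd1 (56 cytosines) averaged 3.10%, Fzd4 (51) 4.10%, Fzd5 (50) 2.39% and Fzd10 (46) 3.63%, and Fzd8 (40) averaged 1.47%, Fzd9 (28) 2.50% and Fzd2 (25) 4.04%. The only receptor bodies with at least 3 cytosines were those of Fzd1, at 7.16%, and Fzd5, at 6.92%. Fzd7 had a change of level close to its start: 7 cytosines at chr1:59480976-59481022, about 1.1 kb before the start, averaged 42.3%, and the next 36, at chr1:59481704-59482727 across the start, averaged 1.38%. In Fzd3, Fzd6 and Lrp5 no measured cytosine was under 20%. Fzd6 averaged 93.6% over 10 cytosines with none under 80%, Lrp5 averaged 85.9% over 16 and Fzd3 81.0% over 7. No start is listed for these 3 genes, and the values describe the sampled stretches rather than the whole genes. Lrp6, whose strand is not listed, had both kinds. Across the high-coordinate edge of the gene, 26 cytosines at chr6:134566689-134567187 averaged 1.07%, and 5 at chr6:134451916-134452145 inside the gene averaged 96.9%.

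Antagonists were sparsely covered, with 134 cytosines in 7 genes. Sfrp1 (35 cytosines) averaged 24.3%, Dkk3 (26) 27.0%, Sfrp2 (23) 9.74% and Frzb (17) 6.88%. Frzb, also called Sfrp3, is known as a brake on the activation of adult dentate progenitors, and 16 of its 17 cytosines, near its start, averaged 1.46%. In Sfrp1, 23 cytosines across the low-coordinate edge of the gene, whose strand is not listed, at chr8:23411369-23412036 averaged 1.28%, and 4 cytosines at chr8:23418429-23418638 inside the gene averaged 94.4%. Dkk1 (16 cytosines, all near the start) averaged 2.43% and Dkk2 near its start 1.36% over 14. The only antagonist body with at least 3 cytosines was that of Sfrp2, at 27.5% over 5. Sfrp5 had 2 cytosines, both at 0%.

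Among the effectors, the nuclear factors Lef1, Tcf7l2 and Tcf7l1 had the most cytosines, with low starts and higher bodies. Lef1 (103 cytosines) averaged 3.62% over 32 near its starts and 63.7% over 71 in its body. Tcf7l2 (90 cytosines) averaged 5.51% over 25 and 52.9% over 65, and Tcf7l1 (65 cytosines), the family member best known as a repressor, averaged 2.89% over 28 and 67.8% over 37, the highest effector body. Apc2, the brain-enriched relative of Apc, averaged 5.88% over 31 near its starts and 17.2% over 19 in its body. Axin2, a feedback inhibitor and a standard target gene of the pathway, kept a low body of 12.1% over 26 cytosines, and the lowest effector body was that of Dvl3, at 2.23% over 4 cytosines that all lie beyond the gene and near Ap2m1. Its paralog Axin1, the scaffold of the destruction complex, was covered only at 10 cytosines inside the gene, with a mean of 96.2% and a lowest value of 92.5%. No start is listed for Axin1. Among the other effectors, Ctnnb1 averaged 7.94% over 31 cytosines, Apc 16.3% over 28, Tcf7 14.6% over 26 and Gsk3b 27.1% over 18, the last with 1.30% near its start and 59.4% in its body. The Dishevelled genes averaged 24.7% in Dvl1, 12.4% in Dvl2 and 3.02% in Dvl3, over 10, 13 and 6 cytosines, and the high ones of Dvl1 lay beyond 2 kb from its start, near Tas1r3.

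**Figure D2:**
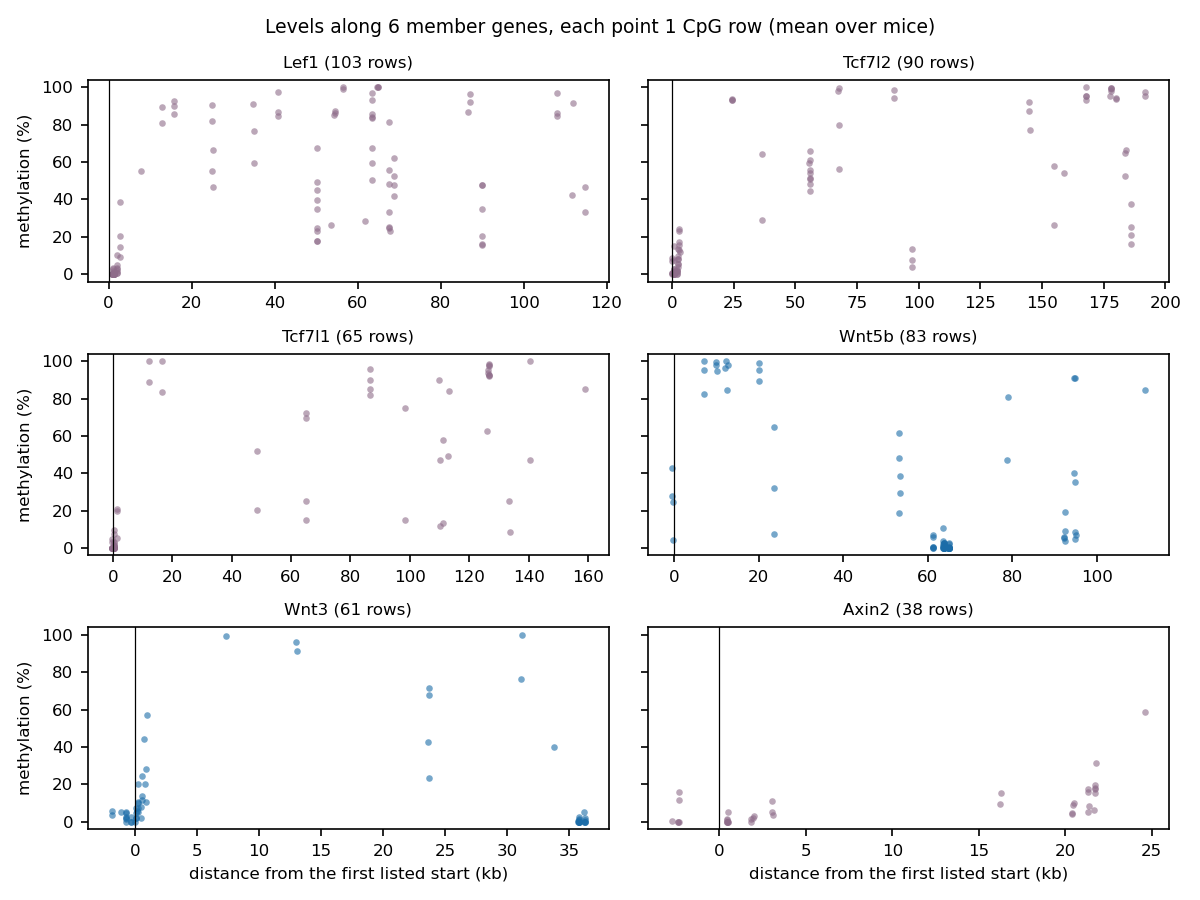
Mean methylation (percent, vertical axis) of each CpG cytosine against its distance in kb from the first listed start (horizontal axis; vertical line at 0) in Lef1, Tcf7l2, Tcf7l1, Wnt5b, Wnt3 and Axin2. The factors Lef1, Tcf7l2 and Tcf7l1 are low next to the first start and spread up to 100% beyond it, Wnt3 has a stretch of 18 cytosines at 0.727% 35.8 kb into the gene, and no cytosine of Axin2 is above 58.5%.

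Starts and bodies were then summarised gene by gene, over genes with at least 3 measured cytosines in the part. Start means had a median of 3.0% over 31 members, against 2.19% over 9540 protein-coding genes. The medians were 3.0% in 11 ligands, 3.06% in 6 receptors, 1.94% in 4 antagonists and 4.57% in 10 effectors. Wnt5b, at 38.8% over 13 cytosines, was the only member start at 20% or more, among 31 members, and 1280 of the 9540 genes reached that level. Body means had a median of 27.4% over 26 members (27.2% in 13 ligands and 51.8% in 10 effectors), against 65.8% over 7497 genes. The median member body was thus lower than the median body of all genes, and 17 of 26 were at 20% or more, against 6292 of 7497. No test was made of this difference, and gene length and CpG content were not matched.

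**Figure D3:**
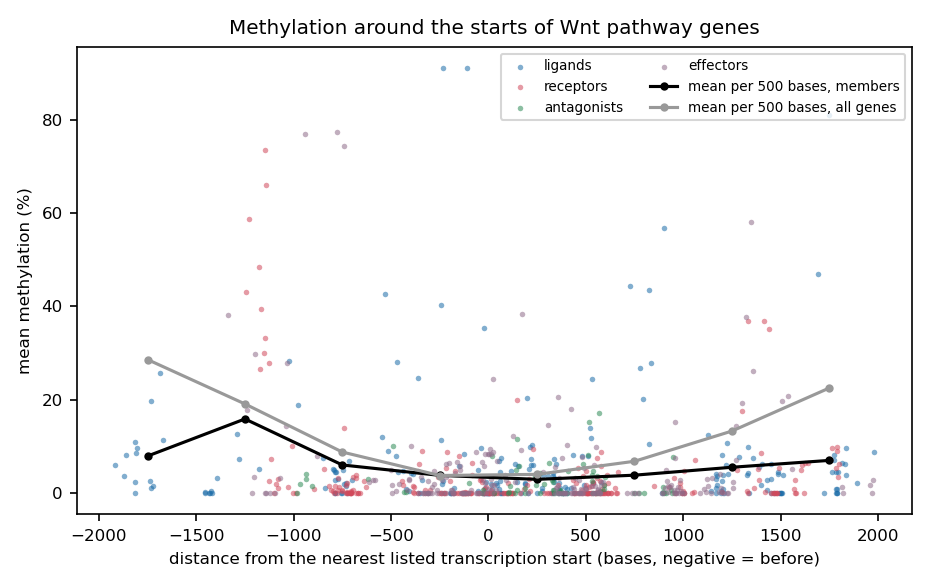
Mean methylation (percent, vertical axis) of member CpG cytosines against distance from the nearest listed transcription start in bases (horizontal axis, negative before the start), points coloured by role, with means per 500 bases for members (black) and for all genes (grey). The member line is lowest at 2.89% in the 500 bases after the start and highest at 15.8% between 1500 and 1000 bases before it, while the line of all genes reaches 28.6% and 22.5% at the outer ends.

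Away from the start the member means were lower than those of all genes, while the medians were close. In the bin from 1500 to 2000 bases after the start, 47 member cytosines in 10 genes averaged 6.96%, against 22.5% over all genes, with medians of 4.40% and 5.28%. In the bin from 2000 to 1500 bases before it 14 member cytosines, in only 3 genes, averaged 7.89% against 28.6%, with medians of 7.0% and 6.55%. The bins 500 bases either side of the start were alike, at 3.75% and 2.89% in members and 3.72% and 3.97% in all genes. The bin from 1500 to 1000 bases before the start was the highest of the member line, at 15.8% over 42 cytosines in 11 genes, and holds the upstream stretch of Fzd7.

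Grouping cytosines no more than 500 bases apart gave 248 segments, of which 166 had at least 3 cytosines. Of those within 2 kb of a listed start, 52 of 58 averaged under 20%. Of the 74 segments more than 2 kb from a listed start, 25 averaged under 20%, 25 between 20% and 80%, and 24 over 80%, and the 25 low ones fell in 16 genes. Of the 25, 5 lie within 2 kb of the listed start of another gene (2310011J03Rik, Ap2m1, Fbxl14 or Wnt3), and the other 20 fell in 14 genes. The low Wnt9b segment is 1 of the 5: its 31 cytosines at chr11:103772998-103775074 span the Wnt3 start. In Wnt3, 18 cytosines at chr11:103809942-103810477, 35.8 kb after its start, averaged 0.727%. In Wnt10b, 16 cytosines at chr15:98772547-98772912 averaged 2.14%, although 8 cytosines between them and the start, at chr15:98774089-98774174, averaged 49.7%. In Wnt8b, a ligand of the embryonic cortical hem, 7 cytosines at chr19:44511518-44512067 near the end of the gene averaged 1.84%. The 43 cytosines of Wnt5b in 3 segments at chr6:119479358-119483101 averaged from 0.336% to 2.32%, but these lie in or within 2 kb of Fbxl14, a gene inside the Wnt5b span, and cannot be assigned to Wnt5b alone. In Tcf7l2, 9 cytosines at chr19:55797560-55797907 were intermediate, at 54.8%, with single cytosines from 44.7% to 66.1%, and the group means of 53.1%, 58.8% and 52.1% in standard, enriched and withdrawal mice were close.

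The housing groups were compared with limma on log2((percent + 5)/(100 - percent + 5)), with p-values Benjamini-Hochberg-adjusted across every feature of the same kind in the series and a call at an adjusted p under 0.05. Differences are in percentage points of methylation. Features were single complete CpG cytosines, gene starts (complete cytosines within 2 kb of a listed start), gene bodies (the rest of the gene and its flanks) and whole genes with their flanks, the last 3 with at least 3 complete cytosines. Of the members, 271 cytosines, 13 starts, 12 bodies and 30 whole genes could be tested. The 10 genes Wnt2b, Wnt8a, Fzd5, Fzd7, Fzd9, Lrp5, Sfrp5, Dvl1, Dvl2 and Dvl3 had cytosines but no complete one. The 10 genes Wnt2, Wnt3a, Wnt4, Wnt9a, Wnt10a, Wnt10b, Fzd2, Fzd3, Fzd10 and Gsk3b had 1 or 2 complete ones, so only single cytosines could be tested there.

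No member feature was called in any of the 3 comparisons, and none was called in the whole series, where the called share was 0% of 100562 cytosines, 3965 starts, 3434 bodies and 8338 whole genes in each comparison. At an unadjusted limma p under 0.05, the member cytosines numbered 10 for enriched against standard (3.69%, against 5.15% of all tested cytosines), 11 for withdrawal against standard (4.06% against 4.42%) and 10 for withdrawal against enriched (3.69% against 4.30%). These shares are at or below the background. The higher ones numbered 4 of 10, 8 of 11 and 5 of 10, that is, 4, 8 and 5 of 271 tested, against 2.7%, 2.47% and 2.32% of all cytosines. By role, ligands had 3, 3 and 2 such cytosines of 110 tested, receptors 1, 0 and 2 of 32, antagonists 1, 2 and 1 of 29, and effectors 5, 6 and 5 of 100, in the same order of comparisons. The 95% intervals come from the same model on the percent scale, while the tests were on the log2 ratio, so an interval and its p can differ. The intervals were wide: for the difference of 2 groups the median half-width was 3.26 points for member starts, 5.92 for bodies and 4.35 for whole genes. The half-widths ranged from 1.36 to 6.79 points for starts, from 1.78 to 9.01 for bodies and from 1.19 to 13.1 for whole genes. On the percent scale, the size of difference that could be told from the spread between mice therefore varied from feature to feature.

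At the member starts, 1 of 13 had an unadjusted limma p under 0.05 in each comparison, against 5.17%, 4.89% and 5.12% of all starts. It was Wnt1 in both comparisons with standard mice. Over its 4 complete cytosines, from 1389 to 1452 bases after the start, the standard mice 1 to 5 had 4.17%, 0%, 11.2%, 5.30% and 8.0%. The enriched mice had 7.17% in mouse 2 and 0% in the other 4, and the withdrawal mice had 3.70% in mouse 1, 0.658% in mouse 4 and 0% in the other 3. Most standard mice were above most mice of the other groups, but the groups overlapped. The mean was 5.73 ± 4.19% for standard, 1.43 ± 3.21% for enriched and 0.872 ± 1.61% for withdrawal mice (SD, 5 mice each). The differences were -4.29 points (95% interval -8.31 to -0.278; limma adjusted p = 0.870) and -4.86 points (-8.87 to -0.839; limma adjusted p = 0.941). With every Wnt1 cytosine near the start measured in 3 or more mice per group, the first difference was 0.926 points, of the opposite sign, and the second -0.674. In this setting, here and below, each mouse was averaged over the cytosines at which it had a value, and these differ between mice. Without standard mouse 1 they were -4.68 and -5.25.

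For withdrawal against enriched the start was that of Sfrp2, an antagonist that binds Wnt ligands. Over 4 complete cytosines the enriched mice had 9.09%, 13.1%, 16.04%, 10.5% and 0%, and the withdrawal mice had 0%, 0%, 0%, 4.63% and 5.0%. The standard mice had 15% in mouse 3, 10.4% in mouse 4 and 0% in the other 3, so they overlapped both groups. The difference was -7.82 points (95% interval -14.6 to -1.03; limma adjusted p = 0.896), and it was -2.09 with cytosines measured in 3 or more mice per group. Dkk2, the antagonist with the tightest values, had a start mean of 1.19 ± 0.830% for standard, 2.40 ± 0.505% for enriched and 2.02 ± 0.526% for withdrawal mice (SD, 5 mice each). Enriched minus standard was 1.21 points there, with an interval from -0.300 to 2.71 and a limma adjusted p of 0.870. With cytosines measured in 3 or more mice per group it was 0.701, and 0.200 for the whole Dkk2 gene with flanks. At Dkk1, a classic inhibitor of the co-receptors, the mean of 4.07% in withdrawal mice rested on 15.3% in mouse 3 and 5.0% in mouse 4, with 0% in the other 3.

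The other 9 tested starts had limma adjusted p-values of 0.902 or more in every comparison. That of Apc2 was the most methylated, at 11.8 ± 5.75%, 14.2 ± 4.21% and 14.4 ± 5.46% for standard, enriched and withdrawal mice over 6 complete cytosines (SD, 5 mice each), and Wnt11 followed at 7.04%, 7.72% and 7.55% over 15. Enriched minus standard was 2.32 points in Apc2 (95% interval -4.42 to 9.05; limma adjusted p = 0.935). It ranged from 0.398 without standard mouse 1 to 4.41 without standard mouse 5, and was -2.36 with cytosines measured in 3 or more mice per group. The receptor starts of Fzd1 and Fzd4 were the lowest of the 9 over all mice, at 1.57%, 1.26% and 0.403% in Fzd1 and 0.358%, 0.865% and 1.10% in Fzd4. Withdrawal minus standard was -1.17 points in Fzd1 (-3.18 to 0.837) and 0.744 points in Fzd4 (-0.620 to 2.11), both with a limma adjusted p of 0.952. Leaving out single mice gave from -1.56 to -0.216 (without standard mouse 1) in Fzd1 and from 0.223 (without withdrawal mouse 5) to 1.02 in Fzd4, and with cytosines measured in 3 or more mice per group both changed sign, to 0.0562 and -1.73. The starts of the nuclear factors averaged 4.47%, 3.95% and 5.37% in Lef1, 3.65%, 3.43% and 2.73% in Tcf7 and 2.32%, 0.929% and 1.96% in Tcf7l1, in the same order, and every group range overlapped the others in these 9 starts. Wnt9b averaged between 3.07% and 3.52%, and Frzb between 1.47% and 2.22%.

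**Figure D4:**
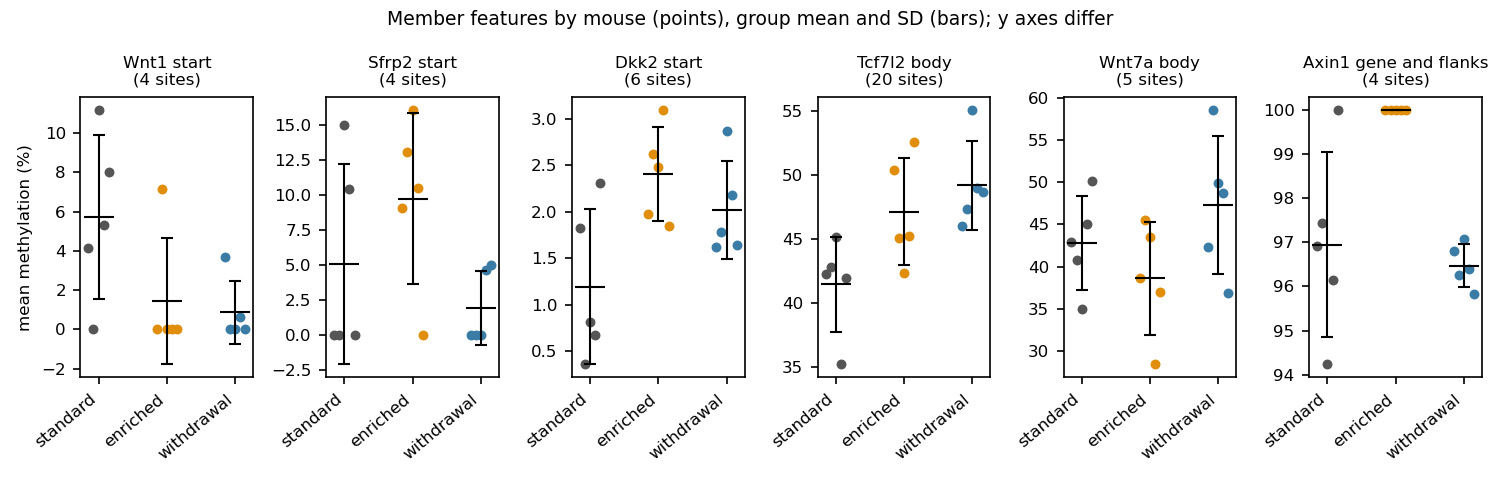
Mean methylation (percent, vertical axis, a different range in each panel) of 6 member features by mouse (points) in the standard, enriched and withdrawal groups, with the group mean and SD (bars). Tcf7l2 body values of standard mice (35.2% to 45.2%) lie below those of withdrawal mice (46.0% to 55.1%), all enriched mice stand at 100% in Axin1, and the groups overlap in the other 4 panels for each pair of groups.

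Among the member bodies, Tcf7l2 had the smallest p. Over 20 complete cytosines the standard mice 1 to 5 had 42.3%, 42.8%, 45.2%, 35.2% and 42.0%. The enriched mice had 50.4%, 45.1%, 42.4%, 45.3% and 52.6%, and the withdrawal mice had 46.0%, 47.4%, 55.1%, 49.0% and 48.7%. All withdrawal mice were above all standard mice, and enriched mice overlapped both groups. This body was picked for its small p among 12, and the share of all bodies that separate in this way is not given. Withdrawal minus standard was 7.73 points (95% interval 1.92 to 13.5; limma adjusted p = 0.987), and enriched minus standard was 5.66 (-0.148 to 11.5; limma adjusted p = 0.837). It was the only member body of 12 with an unadjusted p under 0.05, in withdrawal against standard (8.33%, against 4.37% of all bodies); for enriched against standard and withdrawal against enriched there were 0 of 12, against 5.88% and 4.43%. Leaving out single mice kept the withdrawal difference between 6.16 and 8.65 points. With cytosines measured in 3 or more mice per group it was 2.68 points, and with the complete cytosines of the 14 mice other than standard mouse 1 it was 7.42. For the whole Tcf7l2 gene with flanks, withdrawal minus standard was 6.68 points. That whole-gene difference was 0.0443 points with cytosines measured in 3 or more mice per group.

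Of the 11 member cytosines with an unadjusted p under 0.05 for withdrawal against standard, 4 lay in Tcf7l2, all higher in withdrawal mice. Tcf7l2 had 22 complete cytosines, more than any member but Wnt5a (35) and Lef1 (33). Over all tested cytosines of the series 4.42% had such a p, and 2.47% had it with higher values in withdrawal mice. The 4 Tcf7l2 cytosines lie in 2 short stretches, and cytosines of 1 stretch can share reads. Positions 55744683 and 55744701 on chr19 form 1 stretch, the first of them 2873 bases after the nearest listed start, and 55927854 and 55927923 the other. At 55744683 the standard mice ranged from 0% to 10.9% with a mean of 6.26%, and the withdrawal mice from 12.9% to 27.3% with a mean of 19.0%. The difference was 12.8 points (95% interval 3.31 to 22.2; limma adjusted p = 0.961). At 55744692, in the same stretch, the enriched mice ranged from 27.8% to 50% and the standard mice from 0% to 24.6%, a difference of 21.9 points (6.03 to 37.8; limma adjusted p = 0.876). The groups compared did not overlap at either cytosine, and neither passed the adjusted threshold. Both were picked for their small p among 271 tested member cytosines. The share of all cytosines, bodies or whole genes whose groups do not overlap is not given, here or for the other separations named.

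The bodies of the other members gave smaller or less regular differences. Wnt7a, a ligand known to act on neural progenitors, averaged 42.8 ± 5.57% for standard, 38.6 ± 6.65% for enriched and 47.3 ± 8.17% for withdrawal mice over 5 complete cytosines (SD, 5 mice each). Withdrawal minus enriched was 8.67 points (95% interval -0.337 to 17.7; limma adjusted p = 0.993), with values from 28.4% to 45.5% in enriched and from 36.9% to 58.5% in withdrawal mice. Axin2 averaged 11.3%, 8.24% and 10.9% in standard, enriched and withdrawal mice, and enriched minus standard was -3.03 points (-7.41 to 1.35; limma adjusted p = 0.869). Ctnnb1, the gene of beta-catenin, had a body mean of 2.26%, 3.10% and 1.18% over 4 cytosines. Lef1, with 20 complete body cytosines, averaged 61.1%, 62.5% and 64.4% in the same order. Withdrawal minus standard was 3.35 points in Lef1 and -3.94 points in Tcf7l1. Leaving out single mice gave from 1.34 (without withdrawal mouse 2) to 5.09 (without withdrawal mouse 5) in Lef1 and from -5.68 to -2.26 (without standard mouse 4) in Tcf7l1. With cytosines measured in 3 or more mice per group both changed sign, to -1.18 and 3.08. The body of Wnt9b averaged 63.7%, 66.3% and 67.5%, that of Wnt5b 36.3%, 38.5% and 37.8%, and that of Wnt8b 16.1%, 17.2% and 12.9%.

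Whole genes with flanks let 16 members without a listed start be considered, of which 9 had enough complete cytosines. Unadjusted p-values under 0.05 were found for 4 of 30 whole genes for enriched against standard (Axin1, Wnt1, Dkk2 and Wnt5b; 13.3%, against 6.01% of all genes), for 2 for withdrawal against standard (Tcf7l2 and Wnt1; 6.67% against 5.34%) and for 2 for withdrawal against enriched (Axin1 and Sfrp2; 6.67% against 4.82%). The first count was 1 without standard mouse 4 and 1 to 4 over all mice left out in turn, and the other counts ranged from 1 to 3. With cytosines measured in 3 or more mice per group the counts were 1, 0 and 0 of 47 whole genes, and with the replicate number as a block the first was 1. For Wnt1, Dkk2 and Sfrp2 the whole gene rests on the same complete cytosines as the start and has the same values. From these values the unadjusted limma p of Dkk2 for enriched against standard was 0.0912 as a start and 0.0348 as a whole gene. For Axin1, over 4 complete cytosines at chr17:26136566-26136632, all 5 enriched mice had 100%. The standard mice had 96.9%, 97.4%, 94.2%, 96.2% and 100%, and the withdrawal mice 96.8%, 96.3%, 97.1%, 96.4% and 95.8%. Enriched mice were thus above every withdrawal mouse, and 1 standard mouse reached the same ceiling. The share of all whole genes that separate in this way is not given. Enriched minus standard was 3.05 points (95% interval 0.510 to 5.59; limma adjusted p = 0.777) and withdrawal minus enriched was -3.53 points (-6.07 to -0.985; limma adjusted p = 0.801). The read depth behind these values near 100% is unknown. Wnt5b averaged 41.5%, 46.3% and 44.6% in standard, enriched and withdrawal mice, with 48.0% in standard mouse 2 and 38.8% to 41.2% in the other 4. Wnt5a, with the most complete cytosines (35), averaged 3.89 ± 1.08%, 3.57 ± 1.02% and 4.23 ± 0.608% in the same order (SD, 5 mice each).

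Of the other whole genes without a listed start, the ligand Wnt7b averaged 23.8 ± 4.34%, 20.1 ± 2.79% and 20.6 ± 3.96% in standard, enriched and withdrawal mice (SD, 5 mice each), and enriched minus standard was -3.66 points (95% interval -8.73 to 1.41; limma adjusted p = 0.868). The antagonists Dkk3 and Sfrp1 both had their highest mean in enriched mice, with enriched minus standard at 3.44 points (-1.37 to 8.24) in Dkk3 and 3.05 points (-2.04 to 8.13) in Sfrp1, and limma adjusted p-values of 0.867 and 0.888. Both intervals include 0. The co-receptor Lrp6 varied most between mice, with SDs of 10.9, 10.7 and 9.94 points about means of 76.7%, 77.0% and 81.1%. Fzd6 stayed between 97.9% and 99.0%, Fzd8 between 0.510% and 1.77% and Apc between 23.9% and 26.0% in the 3 group means.

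The other single cytosines with the smallest p in a comparison were a position near a Tcf7 start, 1 in the Wnt1 start, 1 in Wnt11, 1 in the Gsk3b body, 1 near the Dkk2 start, 1 beside Wnt7b, 1 in Wnt2, 1 near a Lef1 start and 2 in Fzd3. At the Tcf7 cytosine, at chr11 position 52282768, all standard and withdrawal mice had 0%, and the enriched mice had 23.1%, 0%, 8.33%, 0% and 33.3%, a difference of 12.9 points (95% interval 2.50 to 23.4; limma adjusted p = 0.876). At the Fzd3 cytosine at chr14 position 65207294 the enriched mice ranged from 43.1% to 63.5%, below the standard mice at 65.2% to 95.9%, and the withdrawal mice covered both, from 40% to 100%. Withdrawal minus enriched there was 26.7 points (3.77 to 49.6; limma adjusted p = 0.976). At the Dkk2 cytosine at chr3 position 132085435 the standard mice ranged from 0% to 1.89% and the withdrawal mice from 2.86% to 15.9%, a difference of 6.69 points (0.280 to 13.1; limma adjusted p = 0.961). At the Wnt1 cytosine at chr15 position 98791246 standard mice ranged from 0% to 32.0% and withdrawal mice from 0% to 2.63%, a difference of -13.4 points (-22.8 to -3.90; limma adjusted p = 0.961). At 5 further cytosines the groups compared overlapped. Standard, enriched and withdrawal means were 0%, 8.57% and 3.11% at chr7 position 98836946 in Wnt11, 16.9%, 6.84% and 15.3% at chr16 position 38097631 in Gsk3b, and 12.7%, 4.93% and 1.11% at chr15 position 85582966 beside Wnt7b. They were 90.2%, 98.2% and 83.6% at chr6 position 18010891 in Wnt2, and 12%, 0% and 15.4% at chr3 position 131112959 near a Lef1 start. The second Fzd3 cytosine, 12 bases from the first at position 65207306, had 74.4%, 59.3% and 81.4%.

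Averaged over the complete cytosines of a role, the housing groups differed by at most 2.32 points. No test was made of these averages, since the members were chosen as a list. Over 125 cytosines of 16 ligands the mean was 20.9 ± 1.20% for standard, 21.0 ± 1.48% for enriched and 20.9 ± 0.705% for withdrawal mice (SD, 5 mice each). Over 50 cytosines of 8 receptors it was 21.8 ± 1.41%, 20.7 ± 0.859% and 22.1 ± 1.44%. Over 37 cytosines of 6 antagonists it was 12.7 ± 1.85%, 15.01 ± 1.63% and 13.2 ± 1.70%, with standard mice at 11.4%, 10.6%, 15%, 14.1% and 12.4% and enriched mice at 16.9%, 13.4%, 16.3%, 13.4% and 15%, so that the ranges overlapped. Over 115 cytosines of 10 effectors it was 31.3 ± 0.774%, 32.3 ± 1.52% and 33.0 ± 1.26%. Over all 327 it was 23.7 ± 0.570%, 24.2 ± 1.02% and 24.5 ± 0.711%, beside 46.9 ± 0.452%, 47.1 ± 1.05% and 47.5 ± 0.482% over the 113832 complete cytosines of the series. Withdrawal minus standard was 0.732 points over the members and 0.570 points over the series.

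**Figure D5:**
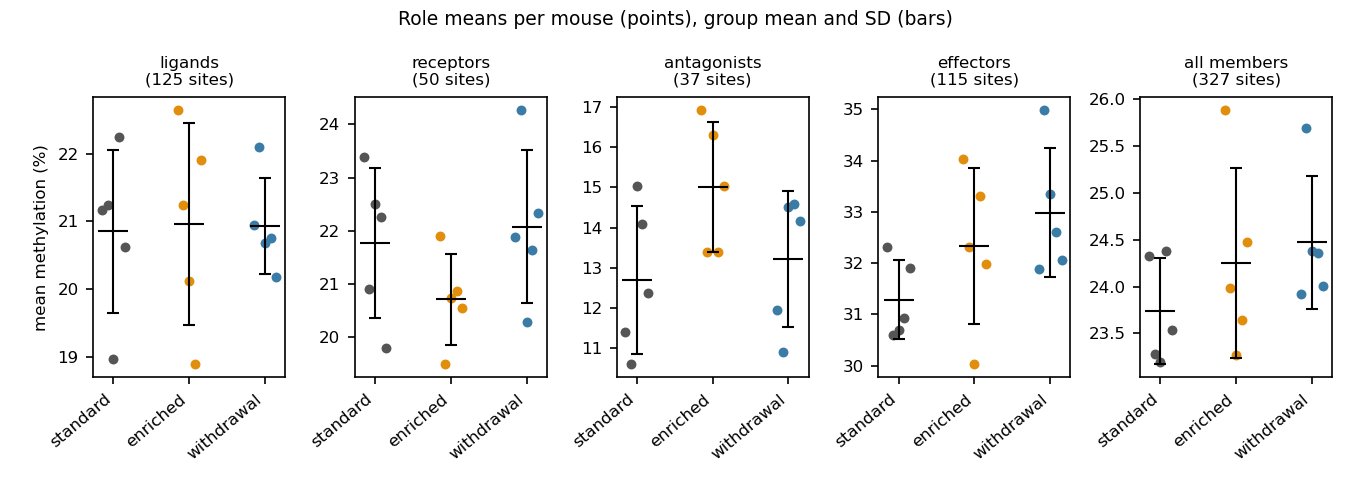
Mean methylation (percent, vertical axis, a different range in each panel) over the complete CpG cytosines of ligands, receptors, antagonists, effectors and all members, by mouse (points) in each housing group, with the group mean and SD (bars). The mouse values overlap between every pair of groups in all 5 panels, and the antagonist means are 12.7%, 15% and 13.2% in standard, enriched and withdrawal mice.

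A further list of 59 Wnt genes (among them R-spondins, Wnt-processing enzymes and target genes) had no call either. Of its 295 tested cytosines, 15 starts, 16 bodies and 37 whole genes, 0 were called by limma in each comparison. Cytosines with an unadjusted p under 0.05 numbered 16, 19 and 12, with 3, 8 and 6 of them higher, for enriched against standard, withdrawal against standard and withdrawal against enriched. These are 5.42%, 6.44% and 4.07% of its cytosines, against 5.15%, 4.42% and 4.30% of all cytosines.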

How the data were processed

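RRBS libraries were made from dentate gyrus DNA of 15 mice with a commercial RRBS kit, per the labels' protocols. Trim Galore 0.4.0, cutadapt 1.8.1, Bismark 0.16.1, methylKit 1.5.2 and build mm10 are named, with no roles, in the submitters' processing notes. The authors deposited percent methylation of each cytosine on each strand, 1 column per mouse, without coverage, so no coverage minimum could be applied and counting error is unknown. The minimum coverage behind a value is not given in the sources used here. All per-sample columns were used.

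The table lists 2918114 positions in 2 runs through the chromosomes. All 40405 positions of the first run that fall in a RefSeq promoter window were a C followed by G on GRCm38.p6, and none of 117652 in the second run were, so the first run was taken as CpG cytosines and the positions as GRCm38. Gene spans came from a RefSeq table of 21900 protein-coding genes. Transcription starts and strands came from a RefSeq promoter table that lists 17492 of them; 16 members have no listed start. Exons and introns were not used here.

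Sites needed a value in all 15 mice and a range of at least 5 points; starts, bodies and whole genes needed 3 such complete sites and a range of at least 1 point. The Y chromosome and mitochondrial genome were left out. limma 3.58.1 (R 4.3.3) fitted 3 group means with a variance trend, two-sided, on the log2 ratio with an offset of 5 points, computed from the deposited percentages. Intervals of 95% come from the same model on the percent scale. The scripts were run on simulated data with known shifts larger than most differences given here. That run checked the estimated size of the shifts and gives no detection rate for smaller ones. Groups came from the housing labels. The p-values measure only the spread between these 15 mice; which mice shared a cage is not given in the sources used here.

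Named genes were, in each role, up to 4 members with the most cytosines; in each comparison the 5 starts, 5 bodies and 5 sites with the smallest p; starts at 20% or more; the highest and lowest bodies of each role; and members with no cytosine. Other members are described so that each is accounted for, and the segments given were picked after their values were seen. Whole genes with flanks were added as features after the files had been seen. The members and lists were chosen with earlier results of these data known. Alternatives were other offsets and scales, filters, windows, flanks, sites with values in fewer mice, the replicate number as a block, and each mouse left out in turn. Tables and figures were made with Python 3.11.15, pandas 2.3.3 and matplotlib 3.10.9.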

Additional observations from a re-analysis of the deposited data

Results flagged for a closer look

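In each group of 5 mice, a value was singled out where its gap to the nearest other mouse exceeded 0.71 of the range of the group (Dixon's ratio). This was met in 18 of 126 groups examined, where chance alone gives about 1 in 20. Several of these items share cytosines, and many groups have 4 mice at exactly 0, where any single value above 0 is singled out.

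The mean over all members was 25.7% in withdrawal mouse 2, with the next mouse at 24.4%. The Wnt1 start had 7.17% in enriched mouse 2, with the other 4 at 0%, and 3.70% in withdrawal mouse 1, with the next at 0.658%. The whole Wnt1 gene with flanks rests on the same 4 cytosines and has the same values, 7.17% and 3.70%. A single Wnt1 cytosine, at position 98791246, had 12% in enriched mouse 2 and 2.63% in withdrawal mouse 4, with 0% in the other mice of those groups. The Dkk1 start had 2.31% in standard mouse 2 and 4.59% in enriched mouse 4, again with 0% in the others. The Wnt5b gene with flanks had 48.0% in standard mouse 2, with the next at 41.2%.

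The Fzd3 cytosine at 65207306 had 62.3% in standard mouse 2, below the other standard mice, and 82.8% in enriched mouse 2, above the other enriched mice. The Wnt7b cytosine at 85582966 had 5.56% in withdrawal mouse 4, the Gsk3b cytosine at 38097631 had 26.8% in enriched mouse 4, and the Lef1 cytosine at 131112959 had 43.75% in standard mouse 1. In Tcf7l2 the cytosine at 55744683 had 28.9% in enriched mouse 3 and that at 55744692 had 50% in enriched mouse 4. The Wnt2 cytosine at 18010891 had 91.2% in enriched mouse 5, with the other 4 at 100%.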

How the results depend on the processing

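No member feature was called by limma in any of 270 refits over 24 settings for 12 counts of calls (sites, starts, bodies and whole genes in 3 comparisons), and the smallest adjusted p was 0.512. The depth is unknown, so the counting error of a single cytosine cannot be given. Most settings left the means over roles within 1 SD; the exceptions were as follows. Weighting genes equally gave receptors -3.60 points (enriched minus standard) and 3.86 (withdrawal minus enriched), and gave effectors 0.192 and all members 0.0319 (withdrawal minus standard). With cytosines measured in 3 or more mice per group, effectors were at -1.96 in the enriched and -1.83 in the withdrawal comparison with standard mice, and all members at -0.678 and -0.868. Each mouse was averaged there over the cytosines at which it had a value. The mice were thus averaged over different cytosines, and the comparison is not the main one on more cytosines. In that setting 14 named differences changed sign. For enriched against standard they were the Wnt9b body at -5.15, the Apc2 start at -2.36, the Wnt1 start at 0.926 and the Wnt1 gene with flanks at 0.765. For withdrawal against standard they were the Wnt9b body at -3.84, the Tcf7l1 body at 3.08, the Lef1 body at -1.18, the Fzd1 start at 0.0562, the Fzd4 start at -1.73 and the Wnt1 gene with flanks at 0.144. For withdrawal against enriched they were the Axin2 body at -1.65, the Ctnnb1 body at 0.989 (also with sites complete in the 14 mice other than standard mouse 1), the Tcf7l1 body at 0.0948 and the Wnt8b body at 0.319. The cause was not tested. With cytosines measured in 3 or more mice per group, member sites at an unadjusted p under 0.05 numbered 37, 48 and 32 of 1123 tested. In the main fit they numbered 10, 11 and 10 of 271, so the larger counts go with more sites tested. The share of all sites in that setting is not given. In the other settings the counts ran from 6 to 15. The Wnt1 start could not be tested with a start window of 1 kb or with 5 complete sites. With the replicate number as a block, 0 members were called. Deviations of mice of the same number in different groups had correlations from -0.0179 to 0.0192 over 15 pairs. For different numbers they ran from -0.0239 to 0.0275 over 60 pairs, and 3 of 15 mice correlated best with their own number. These values gave no sign that the numbers pair the mice. They cannot exclude a pairing, since single cytosines of unknown depth are noisy.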
